A study of Mus musculus with 19 samples.

Results

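Fibroblast growth factors (FGFs) and their receptors were followed in cells taken from the injury site of mice in which extra bone forms in soft tissue, a process called heterotopic ossification (HO). The 7 genes examined were chosen by name out of the 27998 genes of the count tables: the ligands Fgf2, Fgf7, Fgf10 and Fgf18 and the receptors Fgfr1, Fgfr2 and Fgfr3. Each was read in all 19 droplet-based single-cell RNA-seq libraries, which together held 39541 cells after filtering. All of the mice are described as receiving a partial-thickness dorsal burn of 30% of the body surface with transection of the Achilles tendon (burn/tenotomy). Of the libraries without the peptide, 4 were from day 0, 3 from day 3, 4 from day 7 and 4 from day 21. The study's results describe the day 0 cells as uninjured, although the labels list the burn for them too. A further 4 libraries (p7N3) came from burn/tenotomy mice given p7N3, a CD47 activating peptide, at 10 mg/kg daily by intraperitoneal injection for 3 days before and 3 days after injury. Of these, 3 are labelled day 7 and replicate 4 has no day in its labels. In the study PBS was the control for this peptide, but no label says whether the day 7 libraries received PBS. The labels name C57 and LysmCre/Tgfb1fx/fx mice for the series, the second carrying a myeloid Cre, and do not say which library came from which. Wild-type mice are described in the methods as young adult males of the C57BL/6J strain. How many mice each library holds is not given in the sources used here, so the p-values below measure only the spread between libraries.

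FGFs are secreted signals that bind receptor tyrosine kinases at the cell surface, together with heparan sulfate chains that hold the ligand in the matrix. Activated receptors dock the adaptor FRS2 and switch on the RAS-MAPK, PI3K-AKT and PLCγ routes, and the Sprouty, Spred and DUSP proteins made in response dampen the signal. Fgf7 and Fgf10 are the classic mesenchymal ligands that act on the epithelial form of Fgfr2, Fgf2 is a broad ligand that lacks a classical secretion signal and stimulates fibroblasts and vessels, and Fgf18 acts on chondrocytes and osteoblasts during endochondral bone growth. Fgfr1 is the usual receptor of mesenchymal cells, Fgfr2 marks condensing mesenchyme and osteoprogenitors, and Fgfr3 is best known for restraining the growth of cartilage. The count tables read only the 3' end of each transcript, so the splice forms of the receptors that differ in ligand choice were not separated.

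The genes lie on 7 different chromosomes. In GRCm38 with the GENCODE vM21 annotation, Fgf2 lies at chr3:37348346-37410108 (plus strand), Fgf7 at chr2:126034658-126091185 (plus), Fgf10 at chr13:118669791-118792115 (plus) and Fgf18 at chr11:33117430-33147400 (minus). Fgfr1 lies at chr8:25513654-25575718 (plus), Fgfr2 at chr7:130162451-133123350 (minus) and Fgfr3 at chr5:33721674-33737068 (plus). Every gene but Fgf18 shares its locus with another annotated gene. Fgf2 is overlapped on the opposite strand by Nudt6, Fgf2os and Gm42923 and on its own strand by Gm43439, and Fgf7 lies across from Fam227b, Fgf10 from Gm16263, Fgfr1 from Gm16159 and Fgfr3 from G630022F23Rik. The Fgfr2 model is a long readthrough span that holds 36 other genes on its strand. Whether the counting used strand is not given in the sources used here, and the part of reads from overlapping partners was not examined. The 250 bases upstream of the RefSeq start (GRCm38.p6) are shown for the 3 ligands whose window overlaps no annotated exon, and the Fgf2 window lies wholly within such exons. Capitals mark a CCAAT box (CCAAT) or a GC box (GGGCGG) on either strand.
Fgf7 (chr2:126034408-126034657, plus strand): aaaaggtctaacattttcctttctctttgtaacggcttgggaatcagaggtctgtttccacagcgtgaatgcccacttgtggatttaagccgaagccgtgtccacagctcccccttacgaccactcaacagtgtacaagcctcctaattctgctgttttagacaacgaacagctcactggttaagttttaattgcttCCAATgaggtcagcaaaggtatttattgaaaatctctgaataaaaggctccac
Fgf10 (chr13:118714449-118714698, plus strand): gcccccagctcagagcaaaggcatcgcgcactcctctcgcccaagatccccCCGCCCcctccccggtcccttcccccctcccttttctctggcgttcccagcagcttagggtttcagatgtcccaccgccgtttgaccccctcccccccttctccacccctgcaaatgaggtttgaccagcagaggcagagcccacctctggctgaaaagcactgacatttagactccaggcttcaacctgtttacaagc
Fgf18 (chr11:33147401-33147650, minus strand): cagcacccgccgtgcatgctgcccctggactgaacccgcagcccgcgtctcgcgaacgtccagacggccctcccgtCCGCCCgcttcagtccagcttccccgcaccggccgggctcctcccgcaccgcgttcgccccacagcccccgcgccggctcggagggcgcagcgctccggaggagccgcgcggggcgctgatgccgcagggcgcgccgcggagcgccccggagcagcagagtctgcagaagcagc
The Fgf18 window held 77.2% G and C with 37 CpG sites, against medians of 52.4% and 6 over 32851 windows of the same length. The Fgf10 window held 61.2% G and C with 8 CpG sites, and the Fgf7 window 43.6% with 6. Fgf10 and Fgf18 each had 1 GC box, a motif found in 32.7% of all windows, and Fgf7 had 1 CCAAT box, found in 33.8%. No window of the 3 held a TATA box (TATAAA, 12.4% of windows) or an AP-1 element (TGANTCA, 6.75% of windows).

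The counts are unique molecular identifiers (UMIs), each standing for 1 captured RNA molecule. The libraries held 3019467 to 5383855 UMIs in cells at day 0 and 11064153 to 39870492 in the other groups, with a median of 3414 to 4693 UMIs per cell at day 0 and 6534 to 12406 elsewhere, so day 0 carried the largest counting error. Day 0 replicate 1 was deposited with all 737280 barcodes and the others as called cells. No pair of libraries shared more than 22 cell barcodes. Cells were clustered without the FGF pathway genes and named from marker lists, which gave 16 cell types and left 4 clusters unnamed. In the counts of stromal-like cells, markers of other cell types changed with time. The summed level of 22 monocyte/macrophage markers ranged from 177 to 301 UMIs per 1000000 UMIs of those cells (CPM) in the day 0 libraries and from 2322 to 2571 in those of day 3, then from 684 to 1023 (day 7) and from 274 to 441 (day 21). Granulocyte markers in the same cells summed to between 95.9 and 157 CPM in day 0 libraries and between 1966 and 3333 CPM in day 3 libraries, and the part of these transcripts in the results below was not tested.

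Ligand transcripts were found mainly in the stromal-like cells, the fibroblast-like cells marked by Pdgfra, Dcn and collagen genes, whereas Fgfr3 was found mainly in endothelium. Stromal-like cells held 49.75% of all UMIs but 94.9% of those of Fgf10, 90.9% of Fgf7, 80.9% of Fgfr1, 80.8% of Fgfr2, 78.9% of Fgf18 and 78.2% of Fgf2. They held 22.3% of the Fgfr3 UMIs, while endothelial-like cells, with 7.77% of all UMIs, held 55.2%. Keratinocyte-like cells, a small cluster that also carried stromal markers, held 0.514% of all UMIs. Their shares were 0.680% for Fgf7, 1.33% for Fgf10, 0.620% for Fgfr1, 0.947% for Fgfr2 and 1.92% for Fgfr3. The genes rested on very different numbers of UMIs, with 53892 UMIs of Fgfr1 and 16182 of Fgf7 against 2978 of Fgf2, 2747 of Fgfr2, 2584 of Fgf18, 991 of Fgfr3 and 825 of Fgf10. These totals are not corrected for transcript length or capture and do not rank the genes.

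Fgf7, the keratinocyte growth factor, averaged 70.0 ± 15.0 CPM (SD, n = 19) in stromal-like cells and 29.1 ± 3.17 (n = 5) in tenocyte-like cells. The ranges were 47.8 to 99.9 CPM and 24.95 to 33.6 CPM and did not overlap. Fgf7 was lower in 3 other types whose ranges overlap. It was 9.15 ± 5.63 CPM (n = 19) in pericyte/smooth muscle-like cells, 2.12 ± 1.40 (n = 16) in monocyte/macrophage-like cells and 1.68 ± 1.16 (n = 19) in endothelial-like cells. Schwann cell-like cells, the glia of peripheral nerve, spread from 3.72 to 82.7 CPM over the 7 libraries with at least 20 of them and overlapped both stromal-like and tenocyte-like cells. In sums of at least 10 cells they held 74.9 to 168 CPM at day 0 (39 UMIs in 4 libraries), against 59.7 to 75.1 CPM in stromal-like cells, and 0 to 4.20 CPM at day 7 (3 UMIs in 3 libraries). At least 1 UMI of Fgf7 was seen in 41.4% of stromal-like cells and in 0.547% of T/NK lymphocyte-like cells, which should lack it, at median depths of 14147 and 4146.5 UMIs. With each cell thinned to 1500 UMIs the shares were 9.0% and 0.184%, so the stromal signal stayed far above the background of free RNA.

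The other ligands overlapped more between cell types. Fgf18 was 22.2 ± 5.80 CPM (n = 5) in tenocyte-like cells, 16.4 ± 13.5 (n = 19) in stromal-like cells and 4.19 ± 2.49 (n = 19) in pericyte/smooth muscle-like cells, and neighbours in this order did not differ beyond their spread. Fgf2 was 18.4 ± 16.1 CPM in stromal-like, 17.4 ± 8.76 (n = 7) in Schwann cell-like and 13.8 ± 3.44 (n = 5) in tenocyte-like cells, again within the spread. Fgf10 was rare everywhere, with 6.64 ± 6.27 CPM in stromal-like cells and 0.284 ± 0.389 in tenocyte-like cells, and it rested on 825 UMIs in all.

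Among the receptors, Fgfr1 was spread over many lineages. Among the ranked types its mean was highest in muscle and satellite cell-like cells, at 372 ± 48.7 CPM (n = 4, all at day 0). Stromal-like cells over all days followed at 223 ± 51.1 (n = 19). At day 0 alone stromal-like cells held 265 to 328 CPM, which overlaps the muscle and satellite cell-like range of 320.1 to 437.5. Tenocyte-like cells held 166 ± 37.7 (n = 5) and pericyte/smooth muscle-like cells 61.2 ± 46.0 (n = 19). Chondrocyte-like cells had too few libraries to be ranked. Their Fgfr1 was 229, 371, 299 and 189 CPM at day 21 and 99.1 in day 7 replicate 2. Levels were low in T/NK lymphocyte-like cells, at 13.2 ± 8.60 CPM (n = 8), and in monocyte/macrophage-like cells, at 13.1 ± 11.0 (n = 16). These means leave out the unnamed clusters. Of those, a cluster with resident macrophage genes, led by Cd209f, had 109 CPM of Fgfr1 from 905 UMIs. Fgfr2 was 10.4 ± 4.29 CPM in stromal-like and 9.16 ± 5.71 in tenocyte-like cells and stayed at or below 3.24 on average in all immune and vascular types, with 0 in granulocyte-like and B lymphocyte-like cells. Fgfr3 averaged 18.3 ± 18.8 CPM in endothelial-like cells and 1.06 ± 0.609 in stromal-like cells.

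Over all libraries with both cell types, and with the library as a block, stromal-like cells were compared with 4 other types by edgeR's quasi-likelihood test with Benjamini-Hochberg adjustment over all genes. Against tenocyte-like cells, 2 of 5 genes tested were higher, Fgf7 by 1.47 ± 0.19 on the log2 scale (SE, adjusted p = 8.63e-06, edgeR) and Fgfr1 by 0.56 ± 0.11 (adjusted p = 8.94e-04), where 25.6% of all genes passed. Fgf2, Fgf18 and Fgfr2 differed by 0.37, 0.07 and -0.01 and did not pass, and with a finer clustering (Leiden resolution of 2) Fgf18 was higher in stromal-like cells by 1.03 (adjusted p = 3.59e-04, edgeR). Against endothelial-like cells all 5 tested were higher, by 5.55 for Fgf7, 4.47 for Fgf18, 4.32 for Fgf2, 3.43 for Fgfr2 and 2.23 for Fgfr1, in a comparison where 75.7% of all genes passed. Against pericyte/smooth muscle-like cells (65% of all genes passed) the 5 were higher by 1.15 to 3.04, and against monocyte/macrophage-like cells (83.2% passed) by 4.11 to 4.91. The monocyte/macrophage-like type leaves out unnamed clusters with macrophage markers, 3744 cells in all. The median over all genes was 0.25 in the last comparison and within 0.03 of 0 in the other 3. Fgf10 and Fgfr3 did not pass the count filter in any of these 4 fits.

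In stromal-like cells taken as a whole, Fgf2, Fgf10 and Fgf18 fell after injury while Fgf7 did not. At day 3, 6 genes could be tested against day 0 and all 6 passed, 5 lower and 1 higher, where 66.1% of all genes passed (33.3% higher and 32.9% lower). Fgf18 was 39.2, 33.7, 45.3 and 34.6 CPM in the 4 day 0 libraries and 5.86, 5.82 and 5.32 CPM at day 3. Every day 3 library lay below every day 0 library, and the fall was 2.68 ± 0.16 on the log2 scale (adjusted p = 1.02e-08, edgeR). It stayed low at day 7 with 9.63, 4.89, 7.28 and 4.57 CPM and stood at 27.3, 21.3, 24.3 and 12.0 CPM at day 21. The day 21 libraries lay between day 0 and day 7 without overlapping either. Day 7 was lower than day 0 by 2.57 ± 0.24 (adjusted p = 1.55e-06, edgeR), and day 21 was higher than day 7 by 1.73 ± 0.29 (adjusted p = 0.001941, edgeR).

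Fgf2 also fell and rose again in part. Its levels were 48.2, 33.7, 49.2 and 56.4 CPM at day 0, 6.81, 6.53 and 9.04 at day 3, 10.5, 8.34, 7.82 and 8.74 at day 7, and 15.4, 20.6, 18.8 and 13.9 at day 21. No later library reached the lowest day 0 library. The differences from day 0 were -2.62 ± 0.18 at day 3 (adjusted p = 4.35e-08, edgeR), -2.43 ± 0.16 at day 7 (adjusted p = 8.92e-08) and -1.48 ± 0.17 at day 21 (adjusted p = 1.78e-05). From day 7 to day 21 Fgf2 rose by 0.98 ± 0.14 (adjusted p = 9.84e-04, edgeR).

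Fgf10, which drives limb and lung budding, had the largest fall at day 3 among the 6 genes tested. It was 11.8, 18.2, 16.9 and 21.0 CPM at day 0 and 1.597, 1.57 and 0.931 CPM at day 3, a difference of -3.44 ± 0.29 (adjusted p = 2.33e-07, edgeR). At day 7 the 4 libraries were unequal, with 4.20 and 6.15 CPM in replicates 1 and 3 and 1.35 and 1.02 in replicates 2 and 4, all below day 0. The difference from day 0 was -2.39 ± 0.52 (adjusted p = 0.001797, edgeR). At day 21 it was 7.94, 7.18, 10.1 and 6.33 CPM, lower than day 0 by 1.05 ± 0.23 on the log2 scale (adjusted p = 0.002551, edgeR), a call lost in a single fit of all 5 groups (adjusted p = 0.0793). The difference of 1.36 ± 0.50 between day 21 and day 7 did not pass (adjusted p = 0.05669, edgeR), although the groups did not overlap. It passed without day 7 replicate 3, at 1.94 (adjusted p = 0.01397, edgeR), and in DESeq2 (adjusted p = 0.01617).

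Fgf7 took another course. It was 61.0, 59.7, 66.6 and 75.1 CPM at day 0 and 99.9, 89.3 and 93.5 at day 3, and every day 3 library lay above every day 0 library. The rise was 0.60 ± 0.11 (adjusted p = 3.01e-04, edgeR). At day 7 it was 74.4, 56.6, 47.8 and 53.8 CPM, overlapping day 0, and the difference of -0.17 ± 0.15 did not pass (adjusted p = 0.3504, edgeR). At day 21 it was 80.3, 67.9, 65.3 and 82.7 CPM, 0.22 ± 0.12 from day 0 (adjusted p = 0.1663, edgeR). That difference passed as a rise at a resolution of 2 (0.38, adjusted p = 0.01991, edgeR) and with FGF genes allowed in the clustering (0.41, adjusted p = 0.02584). The rise from day 7 to day 21 was 0.41 ± 0.14 with overlapping groups (adjusted p = 0.04415, edgeR), and leaving out any 1 library other than day 7 replicate 1 ended that call (adjusted p = 0.05019 to 0.1124, edgeR), as did both of those clusterings (adjusted p = 0.09732 and 0.09393).

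**Figure D1:**
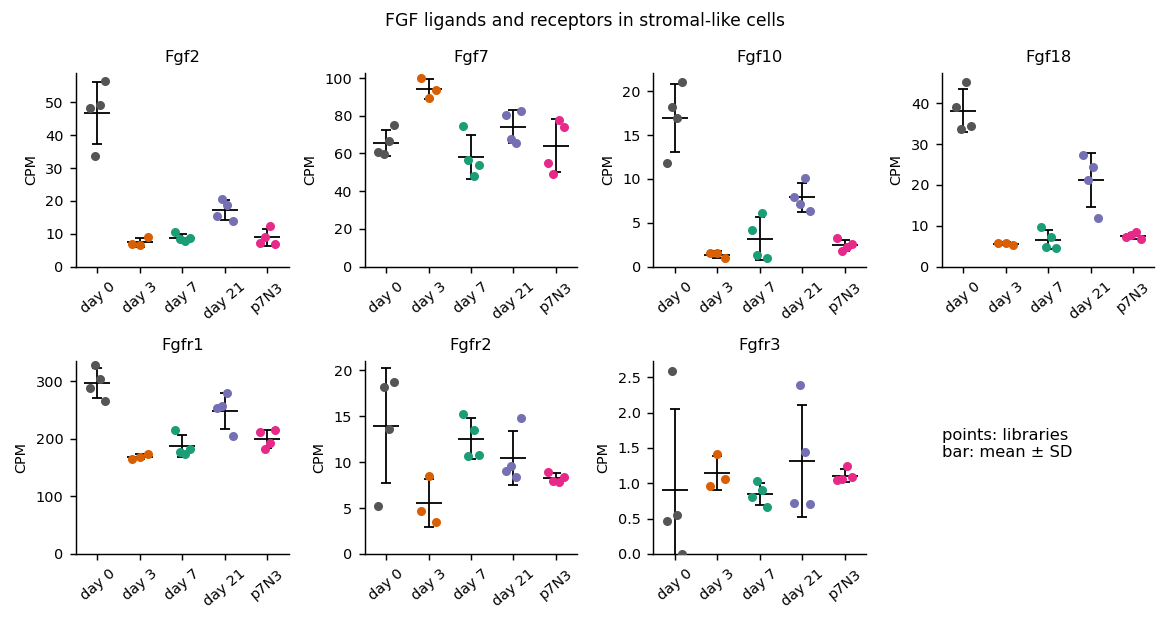
CPM of the FGF genes in stromal-like cells by group. Each point is 1 library, and the bars give the mean and SD. Fgf2, Fgf10 and Fgf18 were highest at day 0 and lowest at days 3 and 7, and Fgf7 was highest at day 3. The p7N3 libraries overlapped day 7 except for Fgfr2 and Fgfr3, neither of which passed edgeR's test.

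Of the receptors, Fgfr1 fell at days 3 and 7. It was 289, 328, 304 and 265 CPM at day 0, 165, 169 and 174 at day 3, 216, 178, 174 and 182 at day 7, and 254, 257, 280 and 205 at day 21. The day 3 and day 7 libraries all lay below day 0, by 0.71 ± 0.09 (adjusted p = 1.10e-05, edgeR) and 0.64 ± 0.10 (adjusted p = 1.37e-04), while day 21 overlapped day 0 and differed by -0.21 ± 0.11 (adjusted p = 0.1452). Day 21 was higher than day 7 by 0.46 ± 0.11 (adjusted p = 0.01008, edgeR). Fgfr2 was 5.197, 18.2, 13.7 and 18.8 CPM at day 0 and 4.69, 8.49 and 3.46 at day 3. These groups overlap, and the difference of -1.07 ± 0.40 (adjusted p = 0.02866, edgeR) lost its call when any 1 of day 0 replicates 2, 3 and 4 and day 3 replicates 1 and 3 was left out (adjusted p = 0.06294 to 0.125). Fgfr2 ranged from 10.7 to 15.2 CPM (day 7) and from 8.43 to 14.8 CPM (day 21), with differences from day 0 of -0.02 ± 0.29 and -0.21 ± 0.33 that did not pass. Fgfr3 never exceeded 2.59 CPM in a stromal-like sum and did not pass the count filter in the comparisons with day 0. Between day 21 and day 7 it differed by 0.47 ± 0.40 (adjusted p = 0.3886, edgeR).

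In counts, 4 of 6 genes were lower at day 7 than at day 0, none was higher, and 54.6% of all genes passed (28% higher and 26.6% lower). At day 21, 3 of 6 were lower than at day 0, where 37.9% of all genes passed (18.9% higher and 19% lower). Against day 7, 4 of 7 were higher at day 21, where 34% of all genes passed (17.7% higher and 16.3% lower). The median log2 difference of the genes tested was -1.84 at day 3, -1.52 at day 7 and -0.53 at day 21 against day 0, beside a median over all genes of 0.00, 0.01 and -0.02. The comparisons with day 0 share its 4 libraries. Without day 0 replicate 3 the fall of Fgf18 at day 21 (-0.86 ± 0.23, adjusted p = 0.01052) lost its call (adjusted p = 0.05338, edgeR), as it did with FGF genes allowed in the clustering (-0.56, adjusted p = 0.0717). Fgf7 at day 7 gained a call as a fall when day 7 replicate 1 was left out (-0.31, adjusted p = 0.03673, edgeR).

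The stromal-like cells were not the same clusters on each day. A cluster led by Myoc held 89.7 ± 3.66% of the stromal-like cells at day 0, 2.65 ± 2.37% at day 7 and 20.2 ± 11.0% at day 21, and a cluster led by Prg4, a lubricin gene of joint and sheath linings, held 91.1 ± 3.49% at day 3. At day 7 the largest was led by C1qtnf3 (34.8 ± 11.7%) and at day 21 by Sfrp4 (52.3 ± 5.93%). The Myoc cluster had 4 cells at day 3 and the Prg4 cluster had 3 at day 0. No day 3 difference was tested within a cluster, so those differences cannot be told apart from this change of cluster. Within the Myoc cluster Fgf18 was 36.8 ± 3.50 CPM at day 0, 42.9 ± 9.56 at day 7 and 43.6 ± 22.9 at day 21, and Fgfr1 was 299 ± 32.9, 290 ± 68.8 and 298 ± 18.99. A fit on that cluster alone gave a day 7 against day 0 difference of 0.11 for Fgf18 (adjusted p = 0.8813, edgeR) and 0.03 for Fgfr1 (adjusted p = 0.9515), and none of 5 genes tested passed, where 13.5% of all genes did. Within the cluster that made up most of the day 0 stroma, no fall of Fgf18 or Fgfr1 at day 7 was detectable. Fgf2 in that cluster was 43.6 ± 8.50, 26.7 ± 14.8 and 34.5 ± 11.8 CPM, a day 7 difference of -0.77 that did not pass (adjusted p = 0.1344, edgeR), on 138 day 7 cells. Fgf10 was 17.3 ± 3.47, 8.91 ± 10.3 and 6.15 ± 1.55 CPM, with a fall of 1.38 on the log2 scale at day 21 (adjusted p = 0.01831, edgeR), the only call among the 5 genes at that time, where 6.06% of all genes passed.

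A cluster led by Has1, a hyaluronan synthase, held 8.92 ± 3.55% of the day 0 and 6.74 ± 3.77% of the day 7 stromal-like cells. Here Fgf2 was 82.1 ± 5.10 CPM at day 0 (n = 3), 24.7 ± 17.4 at day 7 (n = 4) and 20.1 ± 5.22 at day 21 (n = 4), and both falls passed within the cluster, at -1.95 (adjusted p = 0.004023, edgeR) and -1.97 (adjusted p = 0.002001). Fgf7 was 40.3 ± 14.3, 76.1 ± 18.2 and 106 ± 36.4 CPM, and its day 21 rise of 1.40 passed (adjusted p = 0.02161, edgeR). In all, 1 of 4 genes tested passed at day 7 and 2 of 3 at day 21 in this cluster, where 20.8% and 12.2% of all genes did. The injury clusters differed from each other in ligands. At day 7 the C1qtnf3 cluster, which also carried 66.7% of the tenocyte marker list at a high level, had 19.97 ± 3.98 CPM of Fgf7 and 3.25 ± 0.620 of Fgf18, while the cluster led by Gzme had 118 ± 37.7 CPM of Fgf7 and 22.5 ± 1.90 of Fgfr2. The Sfrp4 cluster at day 21 had 96.9 ± 5.2 CPM of Fgf7, 25.8 ± 5.08 of Fgf18 and 12.2 ± 4.18 of Fgf10, and at day 7 76.9 ± 16.3, 23.8 ± 2.60 and 10.9 ± 8.57. Clusters were not tested against each other.

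Tenocyte-like cells, from clusters led by Cilp2, Matn4 and Chad, gave sums of 41 cells in 3 libraries at day 0, 26 in 2 at day 7 and 897 in 4 at day 21. Their number at day 7 depended on the clustering, with 36 cells in all here, 1224 at a resolution of 2 and 1125 with FGF genes allowed, beside 897, 1124 and 1066 at day 21. Clusters led by C1qtnf3 were named tenocyte-like in the other 2 clusterings and stromal-like here, so the values below hold for the narrower group. Scx, a gene of the tenocyte marker list, was among the 3 leading genes of the C1qtnf3 cluster here. Fgfr1 was 262, 227 and 305 CPM at day 0 and 107 and 127 at day 7, which do not overlap, and the difference was -1.23 ± 0.29 (adjusted p = 0.0133, edgeR), where 22.1% of all genes passed. The call was lost without day 7 replicate 2 (adjusted p = 0.1469, edgeR), which leaves 1 day 7 library, in DESeq2 (adjusted p = 0.0604), with no filter on low counts (adjusted p = 0.107) and with FGF genes allowed in the clustering (-0.53, adjusted p = 0.1374). At a resolution of 2 it was kept at -0.72 (adjusted p = 0.00365, edgeR). At day 21 Fgfr1 was 145, 156, 173 and 129 CPM and Fgf7 was 33.6, 24.95, 28.2 and 30.2 CPM. Fgf18 averaged 20.7 ± 5.38 CPM there (n = 4) and tenocyte-like cells, with 4.86% of all UMIs, held 14.8% of the Fgf18 UMIs. Chondrocyte-like cells, marked by Col2a1 and Acan, were 68 cells at day 21 and 51 in day 7 replicate 2. At day 21 Fgfr2 was 66.0, 98.0, 108 and 40.2 CPM in them and Fgfr3 was 30.8, 24.5, 43.9 and 45.5 CPM. The lowest of these Fgfr2 values lay above the highest stromal-like value at any time (18.8 CPM), and the lowest Fgfr3 value above the highest stromal-like value of 2.59 CPM. In day 7 replicate 2 Fgfr2 was 19.6 CPM and Fgfr3 4.61, but in cells of another cluster. The Col2a1 cluster held 62 of the day 21 cells and had 75.6 CPM of Fgfr2 and 43.3 of Fgfr3 over all libraries. The cluster led by Col9a3, with nearly all of the day 7 cells, had 22.0 and 6.28. With FGF genes allowed in the clustering, 0 cells at day 7 and 63 at day 21 were chondrocyte-like. A change with time was therefore not separable from the cluster. The day 21 sums hold 11 to 32 cells each, and no chondrocyte-like sum was tested. Chondrocyte-like cells held 4.26% of the Fgfr2 and 5.95% of the Fgfr3 UMIs with 0.552% of all UMIs.

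Taken as a whole, endothelial-like cells had lower Fgfr3 and higher Fgfr1 after injury. In endothelial-like cells Fgfr3 was 72.2, 47.0, 38.5 and 36.3 CPM at day 0, 3.87, 10.0 and 5.15 at day 3, 11.2, 2.98, 3.40 and 5.98 at day 7, and 23.5, 24.2, 19.9 and 21.8 at day 21. Day 7 lay wholly below day 21 and day 21 wholly below day 0. The fall from day 0 to day 7 was 2.96 ± 0.35 on the log2 scale (adjusted p = 9.86e-06, edgeR). Fgfr1 went the other way, with 30.5, 24.4, 30.1 and 37.7 CPM at day 0 and 48.8, 91.2, 82.5 and 67.8 at day 7, a rise of 1.23 ± 0.20 (adjusted p = 1.26e-04, edgeR). The day 3 libraries ranged from 47.9 to 57.97 CPM and those of day 21 from 49.0 to 72.7 CPM, both also above the day 0 range. Both of the 2 genes tested passed, where 59.4% of all genes did. Fgfr3 UMIs were seen in 16.7% of endothelial-like cells at day 0 and 5.56% at day 7, and in 6.24% and 1.09% after thinning to 1500 UMIs, against 1.54% of stromal-like and 0.183% of T/NK lymphocyte-like cells before thinning.

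The endothelial-like clusters also changed. A cluster led by Timp4 held 85.6 ± 2.96% of these cells at day 0, 4.46 ± 3.32% at day 7 and 47.3 ± 19.04% at day 21, and a cluster led by Plvap, a gene of fenestrated endothelium, went from 11.4 ± 2.19% to 79.2 ± 2.98% at day 7. Within the Plvap cluster Fgfr3 was 48.8 ± 32.5 CPM at day 0 and 7.09 ± 4.16 at day 7, and Fgfr1 was 22.4 ± 8.68 and 53.3 ± 6.12. Both differences passed in that cluster alone, at -2.59 for Fgfr3 (adjusted p = 2.23e-04, edgeR) and 1.3 for Fgfr1 (adjusted p = 0.001215), where 40.5% of all genes passed. Within the Timp4 cluster Fgfr1 did not rise, at 26.5 ± 2.58 CPM at day 0 and 25.8 ± 6.68 at day 21. Fgfr3 there was 50.8 ± 12.4 and 30.9 ± 5.79 CPM, and that cluster was not tested alone. The cluster led by Ccl21a, a lymphatic chemokine gene, had the highest endothelial Fgfr1, at 151 ± 42.1 CPM at day 7. Stromal markers summed to 1518 to 1831 CPM in endothelial-like cells at day 0 and 2296 to 4936 at day 7, pericyte markers to 1454 to 2399 and 383 to 828, and erythrocyte markers to 7809 to 15100 and 1251 to 4199, and their part in these differences was not tested.

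In pericyte/smooth muscle-like cells Fgfr1 was 111, 123, 176 and 149 CPM at day 0, 21.2, 28.6 and 32.4 at day 3, 43.4, 24.7, 35.8 and 29.1 at day 7, and 60.7, 73.8, 65.3 and 69.6 at day 21. Every later library lay below day 0, and the fall to day 7 was 2.19 ± 0.22 on the log2 scale (adjusted p = 1.98e-07, edgeR), where 46.7% of all genes passed. Within the cluster led by Myh11, the smooth muscle myosin, Fgfr1 was 159 ± 35.8 CPM at day 0 and 162 ± 28.0 at day 7, a difference of -0.09 (adjusted p = 0.8252, edgeR), where 24.2% of all genes passed. That cluster held 76.5% of the class at day 0 and 14.3% at day 7, and the remaining cluster, led by the pericyte gene Rgs5, had 18.9 ± 2.69 CPM at day 7 (96 UMIs, n = 4). At day 0 it held 2 UMIs of Fgfr1 in 26 cells of 2 libraries, too few for a level. Stromal markers summed to 2167 to 4210 CPM in these cells at day 0 and 14920 to 16140 at day 7, and their part was not tested.

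**Figure D2:**
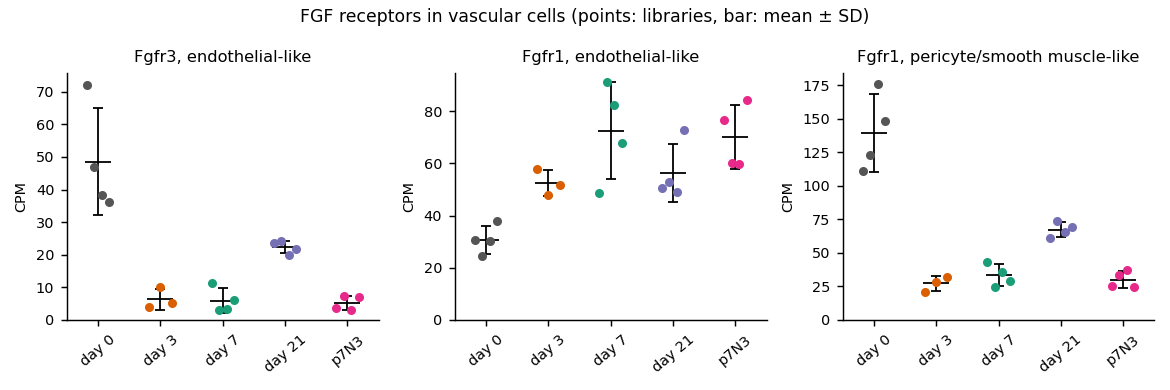
CPM of Fgfr1 and Fgfr3 in endothelial-like cells and of Fgfr1 in pericyte/smooth muscle-like cells by group. Points are libraries and bars the mean and SD. Endothelial-like Fgfr3 was at 36.3 to 72.2 CPM at day 0 and at most 11.2 at day 7, while Fgfr1 was at 24.4 to 37.7 CPM at day 0 and at least 48.8 at day 7.

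When the difference itself was tested between whole cell types, whose mix of clusters changed, the change from day 0 to day 7 differed. For Fgfr1 it was lower in stromal-like than in endothelial-like cells by 1.84 ± 0.24 on the log2 scale (adjusted p = 3.99e-05, edgeR interaction term) and higher in stromal-like than in pericyte/smooth muscle-like cells by 1.58 ± 0.21 (adjusted p = 3.60e-06). For Fgfr3 it was higher in stromal-like than in endothelial-like cells by 3.56 ± 0.79 (adjusted p = 0.00303, edgeR), with few Fgfr3 UMIs in the stromal-like sums. For Fgf18 it was lower in stromal-like than in pericyte/smooth muscle-like cells by 2.30 ± 0.73 (adjusted p = 0.02273, edgeR), with 3 UMIs in the pericyte/smooth muscle-like cells at day 0. Within the Myoc and Myh11 clusters alone the Fgfr1 difference at day 7 did not pass, and clusters were not compared by this term. The share of all genes that passed this term is not given here.

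Over whole libraries, without regard to cell type, every FGF gene examined except Fgf7 had its lowest mean at day 3. Fgfr3 averaged 15.6 ± 4.29 CPM at day 0, 0.842 ± 0.301 at day 3 and 1.14 ± 0.341 at day 7. On the same days Fgf10 was 6.23 ± 1.73, 0.5035 ± 0.164 and 1.98 ± 1.57 CPM. Fgf18 was 14.8 ± 4.83, 2.345 ± 0.257 and 4.10 ± 1.17 CPM, while Fgf7 was 26.9 ± 5.91, 33.6 ± 3.36 and 35.6 ± 2.28. At day 21 Fgf18 stood at 14.1 ± 3.66 CPM, within the day 0 range. In such sums fewer cells of a type and less RNA per cell cannot be told apart.

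CD47 peptide treatment was compared with day 7 without the peptide to see whether it changed these genes at the same stage. In stromal-like cells none of the 7 genes passed, where 0.00739% of all genes did, 1 of 13532. At an unadjusted p under 0.05, 1 of the 7 and 2092 of all genes passed in edgeR, and DESeq2 called 1 of the 7 and 296 of all genes (2.19%). That gene was Fgfr2, which was 15.2, 10.7, 13.6 and 10.8 CPM in the day 7 libraries and 8.97, 7.93, 7.87 and 8.38 in the p7N3 libraries. The groups did not overlap, and the difference was -0.60 ± 0.13 (adjusted p = 0.119, edgeR, and -0.59 with adjusted p = 0.01327 in DESeq2). The lower Fgfr2 passed in one tool and not in the other. The other genes differed by -0.37 ± 0.50 (Fgf10) to 0.36 ± 0.23 (Fgfr3), with adjusted p of 0.4794 to 0.984 (edgeR), and Fgf7 was 55.2, 49.1, 77.9 and 74.3 CPM with the peptide, overlapping day 7. Fgfr3 was 1.04 to 1.24 CPM with the peptide and 0.666 to 1.03 CPM without it, which do not overlap, on 13 to 26 UMIs a library. How many of all genes had no overlap between these groups is not given here, so the lack of overlap carries no weight alone. In tenocyte-like cells Fgfr1 alone could be tested, at 65.7 and 196 CPM with the peptide and a difference of 0.21 ± 0.48 (adjusted p = 0.9991, edgeR), where 0% of all genes passed and 111 did at an unadjusted p under 0.05. In endothelial-like cells Fgfr1 and Fgfr3 differed by -0.05 ± 0.17 and -0.23 ± 0.44, where 0% of all genes passed and 802 did unadjusted. In pericyte/smooth muscle-like cells Fgf2, Fgf7 and Fgfr1 differed by -0.14 ± 0.49, -0.13 ± 0.40 and -0.18 ± 0.20, where 0.0106% passed and 658 did unadjusted. No FGF gene was called in these fits of the 3 cell types with edgeR, nor reached an unadjusted p under 0.05. The tenocyte-like fit rested on p7N3 sums of 10 and 12 cells. At a resolution of 2, with 1224 day 7 and 541 p7N3 tenocyte-like cells, 1 FGF gene was called in that cell type. The share of all genes called in that fit is not given here, so the call cannot be set against it.

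The rest of the pathway was counted from lists of 76 other genes. All of these lists were read in stromal-like cells as a whole, whose mix of clusters changed between days. Their genes were not tested within a cluster. Among feedback inhibitors and target genes, which are transcribed in response to FGF and other growth factors, 10 of 14 tested were lower and 2 higher at day 3 than at day 0 in stromal-like cells (median -0.98), 10 of 16 were lower and 1 higher at day 7 (median -0.81) and 7 of 14 were lower and 0 higher at day 21 (median -0.68). Of all genes 32.9% were lower at day 3, 26.6% at day 7 and 19% at day 21, with medians of 0.00, 0.01 and -0.02. Spry4, a Sprouty inhibitor, was 12.6 ± 3.58 CPM at day 0 and 3.52 ± 1.20 at day 21 (log2 difference -1.83 ± 0.28, adjusted p = 1.99e-04, edgeR). Il17rd, which binds and dampens FGF receptors, was 14.9 ± 4.70 CPM at day 0 and 1.21 ± 0.659 at day 3 (-3.37 ± 0.35, adjusted p = 1.92e-06, edgeR). Spry1 was 13.2 ± 3.08 CPM at day 7 and 41.1 ± 5.60 at day 21, a rise of 1.70 ± 0.16 (adjusted p = 1.99e-04, edgeR). From day 7 to day 21, 5 of 16 tested were higher and 4 lower (Dusp6, Etv4, Fosl1 and Dusp5), with a median of 0.08. Of all genes 17.7% were higher and 16.3% lower in that comparison. Myc, a target shared with many growth factors, fell by 1.63 ± 0.21 on the log2 scale from day 0 to day 21 (adjusted p = 4.71e-05, edgeR).

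Few of the 18 other ligands passed the count filter. Fgf1 and Fgf16 were the 2 tested at day 3 and both were lower (32.9% of all genes were), Fgf1 by 4.46 ± 0.31 on the log2 scale (adjusted p = 4.19e-08, edgeR) from 13.8 ± 2.96 to 0.592 ± 0.105 CPM. At day 7, 2 of 3 tested were lower, beside 26.6% of all genes, none of 2 passed at day 21, and Fgf16 was 0.886 ± 0.389 CPM against 7.67 ± 0.715 at day 0 (-3.11 ± 0.39, adjusted p = 2.15e-05, edgeR). From day 7 to day 21, 4 of 5 rose (17.7% of all genes did), namely Fgf1, Fgf9, Fgf11 and Fgf16, and Fgf9, a ligand of developing cartilage and muscle, went from 0.462 ± 0.436 to 2.53 ± 0.522 CPM (2.56 ± 0.50, adjusted p = 0.003971, edgeR).

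The heparan sulfate proteoglycans and their enzymes, which present FGFs to the receptors, included genes that rose and genes that fell. Of 20 tested, 8 were higher and 6 lower at day 3, 11 higher and 5 lower at day 7, and 11 higher and 4 lower at day 21 against day 0, beside 33.3%, 28% and 18.9% of all genes higher and 32.9%, 26.6% and 19% lower. Syndecan-1 (Sdc1) was 9.60 ± 0.663 CPM at day 0 and 112 ± 10.7, 139 ± 5.85 and 94.8 ± 21.9 at days 3, 7 and 21, with no overlap. Glypican-1 (Gpc1) went from 3.92 ± 1.93 CPM at day 0 to 62.9 ± 22.0 at day 7 and 71.4 ± 11.9 at day 21 (3.95 ± 0.37 and 4.16 ± 0.24, adjusted p = 1.61e-06 and 8.40e-08, edgeR). Glypican-3 (Gpc3) went the other way, from 132 ± 28.5 CPM to 6.21 ± 0.212 at day 3 (-4.30 ± 0.18, adjusted p = 2.96e-10, edgeR). The sulfotransferase Hs6st2 rose by 3.77 ± 0.39 at day 3 (adjusted p = 1.65e-06, edgeR) from 0.767 ± 0.373 CPM. Of the signal adaptors 5 of 10 tested were lower and 1 higher at day 3, 4 of 11 lower and 2 higher at day 7, 1 of 10 lower at day 21, and 4 of 11 were higher at day 21 than at day 7. The same shares of all genes stand beside these counts, with 17.7% of all genes higher from day 7 to day 21. With p7N3 no gene of these lists passed in stromal-like cells, where 18 of 18 feedback inhibitors and target genes and 20 of 20 proteoglycan genes were tested.

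The genes whose levels ran most closely with each FGF gene were found by the correlation of log2(CPM + 1) over 131 sums of 1 cell type in 1 library, from 16 cell types and 19 libraries, among 8753 genes. These values describe the pattern across cell types and depths that the sums share, and carry no test. Fgf7 ran with Mfap5 (r = 0.85), Col1a2 and Col3a1, genes of the matrix, and Fgf18 with Fbn1 (0.83), Adgrd1 and Ccdc80. Fgf10 ran with Dpep1 (0.78), Gdf10 and Scara5, and Fgf2 with Sdc2 (0.79), Ak1 and Gpr153. Fgfr1 ran with Il11ra1 (0.85), Nfix and Adamts5, Fgfr2 with Scara3 (0.81), Sertad4 and Osr2, and Fgfr3 with the endothelial transcription factor Erg (0.81), Lmo7 and Mecom. Mfap5, Col1a2, Col3a1, Fbn1 and Adamts5 are on the stromal marker list that was used to name the cell types.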

How the data were processed

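Single-cell suspensions from the injury site were made into 10x Genomics 3' libraries and aligned to mm10 with Cell Ranger by the authors, who deposited raw UMI counts per gene and barcode for each of 19 libraries. The build field of the labels names GRCh38, whereas the gene IDs are those of mouse. Cells with under 500 genes or over 25% mitochondrial UMIs were removed, which left 39541 cells. Cells were clustered with scanpy 1.11.5 (2000 variable genes without the 83 FGF pathway genes, 30 components, 20 neighbours, Leiden resolution of 0.8), giving 34 clusters, 38 after 1 was split. A cluster was named as a cell type from marker lists, and the naming rule and its thresholds were set after the data were seen. Doublets were kept, and an alternative removed the top 3.9% of Scrublet scores in each library.

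The UMIs of each cell type were added up within each library, sums under 10 cells were left out, and CPM are UMIs per 1000000 of that sum. Sums were tested with edgeR 4.0.16 (quasi-likelihood test, TMM factors, filterByExpr), fitted over all genes and adjusted by Benjamini-Hochberg over all genes tested, with a threshold of 0.05. Log2 differences are given with their SE, and CPM as the mean ± SD over libraries. DESeq2 1.42.0 was an alternative test. Clusters taken alone, and the unnamed clusters with macrophage markers, were tested as alternatives chosen after the data were seen. All code was tested on simulated data. Pathway genes are named where they passed without overlap in a stromal-like comparison, at most 5 for each by size of change. The genes examined and the lists were chosen with earlier results of these data known, so they are not independent evidence. Replicate numbers did not mark shared animals or days in the labels. The SD and SE values reflect the spread between libraries, the shares of UMIs and cells carry no interval, and a level of 0 rests on a floor of 3 counts. Protein sequences were not used here.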

Additional observations from a re-analysis of the deposited data

Results flagged for a closer look

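In endothelial-like cells at day 21, Fgfr1 in replicate 4 was 72.71 CPM while the other 3 libraries lay between 49.01 and 52.71, a gap of 0.844 of the group's range above Dixon's critical value for 4 samples. It was the 1 such case among 40 groups of 4 libraries examined, and chance gives about 1 in 20.

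For 4 genes and cell type pairs the change from day 0 to day 7 differed between cell types in edgeR's interaction term. The share of all genes that passed this term is not given here, so the count cannot be set against it. The cell types were taken whole, and their mix of clusters changed between these days. In stromal-like minus endothelial-like cells the difference of changes was 3.56 ± 0.79 on the log2 scale for Fgfr3 (adjusted p = 0.00303, edgeR) and -1.84 ± 0.24 for Fgfr1 (adjusted p = 3.99e-05, edgeR). In stromal-like minus pericyte/smooth muscle-like cells it was 1.58 ± 0.21 for Fgfr1 (adjusted p = 3.60e-06, edgeR) and -2.30 ± 0.73 for Fgf18 (adjusted p = 0.02273, edgeR). The Fgf18 value rests on 3 UMIs in pericyte/smooth muscle-like cells at day 0. None of the interactions with p7N3 passed, with adjusted p of at least 0.8929 (edgeR).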

How the results depend on the processing

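Of 38 FGF differences that passed edgeR's test, 832 of 875 values under the alternatives kept their direction and call, 38 lost the call and 5 changed sign, all 5 among the alternatives named next. Tested within the Myoc cluster alone, a choice made after the data were seen, the number of FGF genes called in stromal-like cells was 0 at day 7 against day 0, 1 at day 21 against day 0 and 0 at day 21 against day 7. Within the Has1 cluster the first and last of these were 1 and 0, and within the Myh11 cluster the pericyte/smooth muscle-like count at day 7 was 0. For day 21 against day 7 within these clusters the share of all genes called is not given here. Signs turned in the Myoc cluster for Fgf18 (0.1087) and Fgfr1 (0.0252) at day 7, for Fgf7 (-0.2446) and Fgf18 (0.3496) at day 21 against day 0, and for Fgfr1 (-0.0193) at day 21 against day 7. They turned in the Has1 cluster for Fgf7 at day 7 (0.8018), Fgfr1 at day 21 (0.1378), Fgf2 at day 21 against day 7 (-0.0576) and Fgfr1 with p7N3 (-0.1169), and in the Plvap cluster for Fgfr1 with p7N3 (0.0668). These alternatives used fewer cells. Adding tenocyte-like and chondrocyte-like cells to the stroma gave 5 calls at day 21 against day 0, with Fgf7 at -0.0860 and Fgfr2 at 0.1619, and turned Fgfr2 to 0.0805 at day 7 and to 0.0992 at day 21 against day 7. In that fit of day 21 against day 0, 4989 of 11340 genes passed. With a resolution of 2 Fgf7 at day 7 was 0.1022, Fgfr2 at day 21 against day 7 was 0.0559 and the tenocyte-like count with p7N3 was 1. With FGF genes allowed in the clustering the first 2 were 0.1364 and 0.0485.

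DESeq2 called 1 FGF gene with p7N3 in stromal-like cells and 0 in tenocyte-like cells at day 7, where no filter on low counts also gave 0. Requiring 10 UMIs in every library left 1 of 1 called in endothelial-like cells at day 7, and for stromal-like cells 0 against tenocyte-like, 1 against endothelial-like, 1 against pericyte/smooth muscle-like and 0 (of 0 tested) against monocyte/macrophage-like cells, since fewer genes were tested. No filter gave 4 against tenocyte-like cells. Apart from DESeq2 with p7N3, the shares of all genes called in these fits are not given here, so these counts cannot be set against them. Fgfr2 at day 7 against day 0, near 0, turned to 0.0110 with RLE factors, 0.0593 with no filter, 0.0432 with 10 UMIs in every library, 0.2883 with replicates 1 to 3 and 0.0102 in a fit of all groups, and against tenocyte-like cells to 0.1383 (DESeq2), 0.0381 (RLE), 0.0289 (no filter), 0.2893 (day 7 and p7N3 libraries) and 0.0194 (doublet scores). Fgf2 with p7N3 turned to -0.0009 with at most 10% mitochondrial UMIs, and tenocyte-like Fgfr1 with p7N3 to -0.7335 with replicates 1 to 3. The cause was not tested.

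With the replicate number as a block, all 20 of the called FGF differences it could be fitted to kept their call, and Fgf10 at day 21 against day 7 gained one (1.61, adjusted p = 0.007979, edgeR). The block turned Fgf2 with p7N3 to -0.0139 in stromal-like cells and Fgf2 and Fgf7 with p7N3 to 0.0141 and 0.0221 in pericyte/smooth muscle-like cells, none called. Correlations of same-numbered libraries ran from -0.16 to 0.29, so the numbers were not taken to pair the samples. The block could not be fitted in tenocyte-like cells.

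With 1 library left out, the tenocyte-like count at day 7 ran from 0 to 1. Differences that changed sign were Fgfr2 at day 7 (-0.3731 to 0.2277), Fgfr2 at day 21 against day 0 (-0.5749 to 0.0221), Fgfr2 against tenocyte-like cells (-0.1123 to 0.1631) and, with p7N3, stromal-like Fgf10 (-0.6614 to 0.2113) and Fgf2 (-0.1873 to 0.1307), tenocyte-like Fgfr1 (-0.7335 to 0.7678), endothelial-like Fgfr1 (-0.2097 to 0.0807) and Fgfr3 (-0.4722 to 0.4336), and pericyte/smooth muscle-like Fgf2 (-0.3905 to 0.2062) and Fgf7 (-0.3949 to 0.1735). None of these had been called. Against tenocyte-like cells Fgf2 gained a call without day 21 replicate 4 (adjusted p = 0.02136, edgeR). Day 0 libraries, the shallowest, limit the rare genes Fgf10, Fgfr2 and Fgfr3 most.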

Other observations

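Fgf7 UMIs were counted in the Schwann cell-like cells of uninjured tissue. Markers of other cell types were not summed in these cells, so the part of stromal transcripts was not examined. Fgf7 was 102 ± 44.4 CPM at day 0 (n = 4, 74.9 to 168 CPM, 107 cells), 2.64 ± 2.30 at day 7 (n = 3, 71 cells, 3 UMIs) and 31.6 ± 30.6 at day 21 (n = 4, 182 cells). Day 7 lay below both other times without overlap, and no test was run on these few cells. Fgf2 in the same cells was 11.2 ± 12.0, 28.6 ± 11.9 and 20.2 ± 8.33 CPM, with overlapping ranges. In muscle and satellite cell-like cells Fgfr1 was 372 ± 48.7 CPM at day 0 (n = 4) and 295 ± 68.0 at day 21 (n = 3), again overlapping, and no Fgf7 UMI was counted in either group, with limits of 2.60 and 9.43 CPM from the floor of 3 counts. An unnamed cluster of 1349 cells led by Cd209f, Cd209g and Ccl8, genes known from resident macrophages, had 109 CPM of Fgfr1 from 905 UMIs.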
